A study of Rattus norvegicus with 24 samples.

Results

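Genes that mark macrophages were followed in the kidneys of non-pregnant and pregnant rats of 2 strains. The list held 8 genes chosen by name as known markers of these cells: Mrc1, Cd163, Cd68, Csf1r, Adgre1, C1qa, C1qb and C1qc. The deposited count table lists genes by rat Ensembl identifier without a symbol, and 6 of the 8 could be tied to a row. Cd163 and Adgre1 could not be tied to a row and were not analysed here. All 6 linked genes passed the filter on low counts and were among the 14212 genes tested, of 32883 listed. The symbols came from a table of genes with a small unadjusted p in a comparison of these same rats, so the linked genes lean towards genes that changed. How many of them passed the test is therefore a description and not independent evidence. The same holds for the genes of the other lists below, which were tied to rows in the same way.

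Macrophages of the kidney lie in the interstitium between the tubules and around the glomeruli, where they take up debris and present antigen. Their survival depends on CSF1R, the receptor tyrosine kinase for the growth factors CSF1 and IL-34. Tissue macrophages are also a main source of C1q, the recognition protein of the classical complement pathway, which is built from the products of C1qa, C1qb and C1qc.

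RNA was sequenced from 3 rats in each of 4 groups, 12 rats in all. CD-NP were non-pregnant and CD-P18 day 18 pregnant Sprague Dawley (CD) females, an outbred strain, while BN-NP and BN-P18 were non-pregnant and day 18 pregnant Brown Norway (BN) females, an inbred strain whose pregnancies were studied as a model of placental insufficiency. The labels give an age of 2 months and a range of 6 to 8 weeks, the dams were mated within their own strain, and no agent or altered allele is named in any group. Each library came from a slice of whole kidney, mostly cortex with some medulla, of 1 rat, so p-values measure the spread between rats. Reads on genes numbered 8274159 to 11879451 per rat, and levels are given as CPM, the reads of a gene scaled to a common library total after TMM scaling. Markers of kidney were present in every rat: Slc34a1, the phosphate transporter of the proximal tubule, stood at 1430 to 3140 CPM and Nphs1, which encodes nephrin of the podocyte slit diaphragm, at 73.3 to 153 CPM. Changes were tested with the quasi-likelihood method of edgeR, with p-values adjusted by Benjamini-Hochberg over all genes tested, and a gene was called where its adjusted p was below 0.1 and its fold change passed the study's own minimum.

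**Figure D1:**
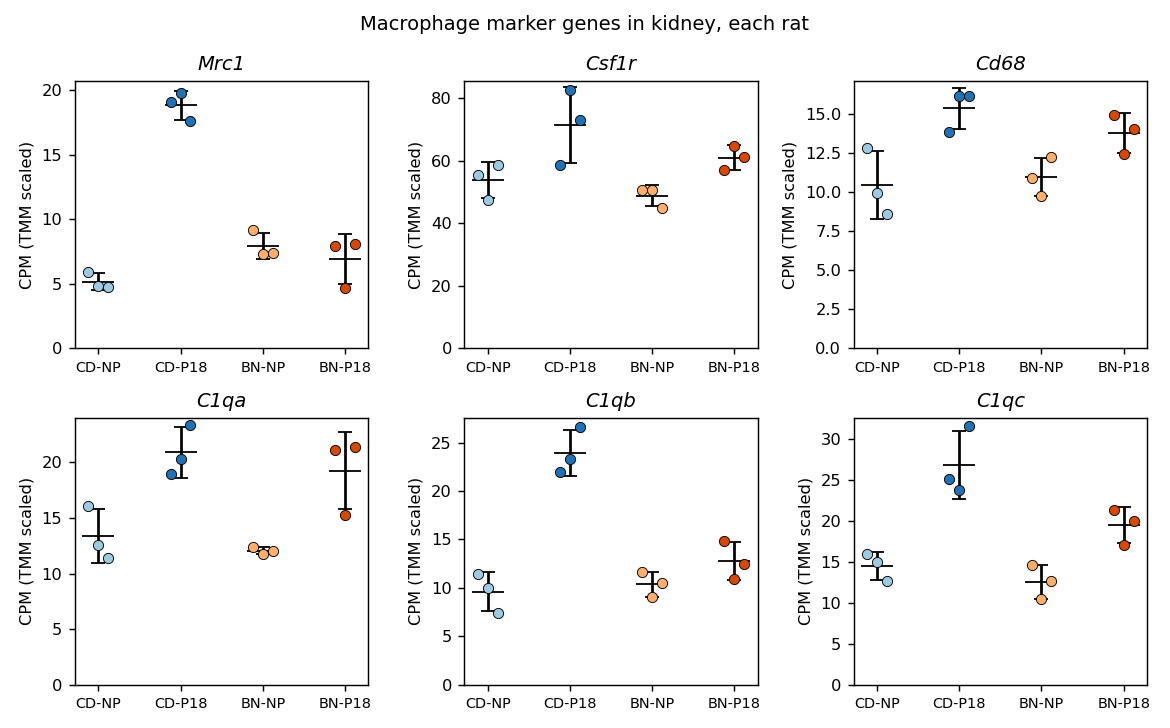
Level of each linked macrophage marker gene in each rat, in TMM-scaled CPM on the vertical axis, for the 4 groups on the horizontal axis. Points are rats, the horizontal bar is the group mean and the error bar is 1 SD (n = 3). Mrc1, C1qb and C1qc stood highest in the 3 CD-P18 rats, with no CD-P18 value below 17.6 CPM for Mrc1, 22 CPM for C1qb or 23.7 CPM for C1qc. C1qa stood at 15.3 to 23.4 CPM in the pregnant rats of both strains.

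Mrc1 (ENSRNOG00000018251) encodes the mannose receptor CD206, an endocytic receptor of tissue macrophages that binds sugars on glycoproteins and microbes. Its level was 5.9, 4.85 and 4.71 CPM in the CD-NP rats and 19.1, 19.8 and 17.6 CPM in the CD-P18 rats. In BN rats it was 9.13, 7.3 and 7.38 CPM without pregnancy and 7.94, 4.65 and 8.08 CPM at P18. The 3 CD-P18 rats thus stood above every other rat, and the 2 BN groups overlapped. These levels rest on 43 to 84 reads per rat outside CD-P18 and on 173 to 223 reads within it. In whole tissue, a change in macrophage number, in RNA per macrophage or in RNA from other cells cannot be told apart. This holds for every macrophage gene below.

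The promoter of Mrc1 is shown because its 250 bases hold a short motif of the macrophage transcription factor PU.1 at 2 places, and because Mrc1 was the member whose change with pregnancy differed most between the strains. The bases lie just before the RefSeq start of the gene on GRCr8, chr17:82157475-82157724, plus strand. Capitals mark TTCCTC, which is the PU.1 core GAGGAA read on the other strand, at positions -180 to -175 and -35 to -30 counted from the start.
Mrc1: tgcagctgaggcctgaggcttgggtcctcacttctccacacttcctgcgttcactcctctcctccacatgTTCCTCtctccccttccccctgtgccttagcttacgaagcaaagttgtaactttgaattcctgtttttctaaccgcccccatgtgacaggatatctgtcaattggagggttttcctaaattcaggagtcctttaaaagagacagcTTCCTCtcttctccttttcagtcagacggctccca

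Mrc1 rose with pregnancy in CD rats, by 3.64-fold (log2 fold change 1.86 ± 0.19 SE, adjusted p = 0.000298), and ranked 7 of all genes tested by p. In BN rats its log2 fold change with pregnancy was -0.22 ± 0.20 SE (adjusted p = 0.79). The BN change minus the CD change was -2.08 ± 0.27 on the log2 scale (adjusted p = 0.00698, rank 5 of all genes), so the response of Mrc1 to pregnancy differed between the strains. The call in CD rats and the call of the difference both held in every alternative run, including without each library in turn.

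Between the strains, Mrc1 was lower in BN-P18 than in CD-P18 (log2 fold change -1.46 ± 0.18 SE, adjusted p = 0.000344). Without pregnancy the order was turned round, and BN-NP stood above CD-NP with no overlap (log2 fold change 0.62 ± 0.20 SE, adjusted p = 0.093). That last call was weak: it was lost when any 1 of the libraries CD-NP 2, CD-NP 3, CD-P18 1, CD-P18 2, CD-P18 3, BN-NP 1, BN-NP 2 or BN-NP 3 was left out, with log2 fold changes of 0.51 to 0.67 and adjusted p-values up to 0.229, and in a fit of the NP libraries alone (adjusted p = 0.102). Reads of both strains were aligned to an assembly of the BN strain, and the part of alignment in the strain differences was not tested.

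Csf1r (ENSRNOG00000018414), the receptor on which macrophages depend for growth and survival, stood at 55.5, 47.5 and 58.7 CPM in CD-NP and at 58.7, 82.7 and 73.2 CPM in CD-P18. In BN rats it stood at 50.8, 50.8 and 44.9 CPM without pregnancy and at 57, 64.9 and 61.2 CPM at P18. The CD groups met at 58.7 CPM, whereas every BN-P18 rat was above every BN-NP rat. Csf1r rose 1.32-fold in CD rats (log2 fold change 0.40 ± 0.12 SE, adjusted p = 0.0845). In BN rats the log2 fold change was 0.32 ± 0.12 SE (adjusted p = 0.318), and the BN change minus the CD change was -0.08 ± 0.17 SE (adjusted p = 0.9). The CD call was lost without CD-NP 1, CD-NP 2, CD-P18 2, CD-P18 3 or BN-NP 2 (log2 fold change 0.29 to 0.43, adjusted p up to 0.267). It was also lost in a fit of the CD libraries alone (adjusted p = 0.16) and with upper-quartile scaling (adjusted p = 0.1).

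Of 11 genes listed around CSF1R and macrophage identity, 5 could be tied to a row and tested, and Csf1, which encodes the other ligand of the receptor, was not among them. Il34, the ligand made by epithelium, had a mean of 11.4 ± 2.14 CPM in CD-NP and 12.9 ± 1.02 in CD-P18 (SD, n = 3). It stood at 8.47 ± 1.04 CPM in BN-NP and 9.02 ± 0.69 in BN-P18. With pregnancy its log2 fold change was 0.18 ± 0.15 SE in CD and 0.09 ± 0.16 SE in BN rats, and neither passed the test. Il34 was lower in BN-P18 than in CD-P18 (log2 fold change -0.51 ± 0.15 SE, adjusted p = 0.0557).

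With pregnancy in CD rats, 2 of these 5 genes rose and none fell, beside 2.56% and 2.15% of all genes tested. They were Trem2, a lipid-sensing receptor of macrophages (log2 fold change 1.81 ± 0.46 SE, adjusted p = 0.0522, from a mean of only 0.49 CPM), and Csf2rb, the shared beta chain of the receptors for GM-CSF, IL-3 and IL-5 (log2 fold change 0.38 ± 0.097 SE, adjusted p = 0.0533). Csf2rb had means of 342 CPM in CD-NP and 447 in CD-P18, against 38.6 and 35.4 for the pan-leukocyte gene Ptprc. Which cells gave its RNA was not tested. None of the 5 was called with pregnancy in BN rats, where 0.823% of all genes were called higher and 0.577% lower, so that none of 5 says little. Between non-pregnant rats, Irf8, a transcription factor of the monocyte lineage, and Csf2ra, the GM-CSF receptor alpha chain, were lower in BN-NP (log2 fold changes -0.64 and -0.50, adjusted p = 0.0544 and 0.072). At P18, Csf2rb was also lower in BN rats (log2 fold change -0.70, adjusted p = 0.000656). With pregnancy, Irf8 and Csf2ra had log2 fold changes of -0.18 and -0.15 in CD rats (adjusted p = 0.668 and 0.684). In BN rats these were 0.27 and 0.32 (adjusted p = 0.69 and 0.516).

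Cd68 (ENSRNOG00000037563) encodes a glycoprotein of the lysosomes and endosomes of macrophages. It was measured at 12.8, 9.92 and 8.55 CPM in CD-NP, and at 13.8, 16.1 and 16.1 CPM in CD-P18. The BN-NP rats had 10.9, 9.74 and 12.2 CPM and the BN-P18 rats 14.9, 12.4 and 14 CPM. In both strains the pregnant rats lay above the non-pregnant rats without overlap, though by a narrow margin in BN. Cd68 rose 1.46-fold in CD rats (log2 fold change 0.55 ± 0.15 SE, adjusted p = 0.0723). The BN log2 fold change was 0.33 ± 0.15 SE (adjusted p = 0.49), and the BN change minus the CD change was -0.22 ± 0.21 SE (adjusted p = 0.747). The CD call was lost without CD-NP 2, CD-NP 3, CD-P18 2 or CD-P18 3 (log2 fold change 0.43 to 0.52) and in a fit of the CD libraries alone (adjusted p = 0.137).

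The 3 genes of complement C1q are neighbours in the rat genome: the RefSeq annotation of GRCr8 lists them in the order C1qb, C1qc, C1qa on chromosome 5, with 0 other protein-coding genes between them. C1qa (ENSRNOG00000012807) was at 16.1, 12.6 and 11.4 CPM in CD-NP and at 19, 20.3 and 23.4 CPM in CD-P18. In BN rats it was at 12.4, 11.8 and 12 CPM without pregnancy and at 21.1, 15.3 and 21.4 CPM at P18. In both strains every pregnant rat stood above every non-pregnant rat. C1qa rose in both, by 1.56-fold in CD (log2 fold change 0.64 ± 0.15 SE, adjusted p = 0.0392) and by a log2 fold change of 0.67 ± 0.16 SE in BN (adjusted p = 0.0786). The BN change minus the CD change was 0.03 ± 0.22 SE (adjusted p = 0.98).

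C1qc (ENSRNOG00000012804) was at 15.9, 15 and 12.6 CPM in CD-NP and at 25.1, 23.7 and 31.5 CPM in CD-P18. Its values in BN rats were 14.6, 10.5 and 12.6 CPM without pregnancy and 21.3, 17 and 20 CPM at P18. The pregnant groups again lay clear of the non-pregnant ones in both strains. C1qc rose 1.84-fold in CD (log2 fold change 0.88 ± 0.15 SE, adjusted p = 0.00636), a call that held in every alternative, and by a log2 fold change of 0.62 ± 0.15 SE in BN (adjusted p = 0.0951). At P18 it was lower in BN than in CD (log2 fold change -0.47 ± 0.14 SE, adjusted p = 0.0676). The BN change minus the CD change was -0.26 ± 0.21 SE (adjusted p = 0.68).

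Some of these C1q calls rested on single libraries. The C1qa call in CD was lost without CD-NP 2, CD-NP 3 or CD-P18 3 (log2 fold change 0.54 to 0.60). In BN, the C1qa call was lost without CD-P18 2, any of the BN-NP libraries, BN-P18 1 or BN-P18 3 (log2 fold change 0.59 to 0.69), and the C1qc call without CD-NP 2, CD-P18 1, CD-P18 2 or any BN library (0.51 to 0.74) and in a fit of the BN libraries alone (adjusted p = 0.115). The lower C1qc of BN-P18 was lost without CD-P18 1, CD-P18 3, BN-P18 2 or BN-P18 3 (-0.51 to -0.34).

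C1qb (ENSRNOG00000012749) was called with pregnancy in CD rats but not in BN rats. Its level was 11.4, 10 and 7.45 CPM in CD-NP and 22, 23.3 and 26.6 CPM in CD-P18. Across BN rats it was 11.6, 9.01 and 10.5 CPM without pregnancy and 14.8, 10.9 and 12.5 CPM at P18. The CD-P18 rats were above all others, as for Mrc1 and C1qc, and the 2 BN groups overlapped, as for Mrc1. C1qb rose 2.48-fold in CD rats (log2 fold change 1.31 ± 0.16 SE, adjusted p = 0.00094), ranking 19 of all genes by p, and was lower in BN-P18 than in CD-P18 (-0.91 ± 0.16 SE, adjusted p = 0.00307). Both calls held in every alternative. The BN log2 fold change was 0.29 ± 0.17 SE (adjusted p = 0.617).

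The BN change of C1qb minus its CD change was -1.02 ± 0.23 on the log2 scale (adjusted p = 0.0868). This call of a strain difference was lost without any 1 library other than CD-NP 1 and BN-P18 1, with values of -1.11 to -0.87 and adjusted p-values up to 0.216, and with upper-quartile scaling (adjusted p = 0.101).

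Promoters of the 2 outer genes of the C1q cluster are shown because C1qb and C1qa changed differently with pregnancy in their shares of C1q reads, given below. C1qb carries the PU.1 core as GAGGAA at -247 to -242 and, on the other strand, as TTCCTC at -90 to -85, in capitals. C1qa holds none of the motifs searched, so it is all in lower case. Both are 250 bases before the RefSeq start on GRCr8, minus strand, C1qb at chr5:154407828-154408077 and C1qa at chr5:154419934-154420183.
C1qb: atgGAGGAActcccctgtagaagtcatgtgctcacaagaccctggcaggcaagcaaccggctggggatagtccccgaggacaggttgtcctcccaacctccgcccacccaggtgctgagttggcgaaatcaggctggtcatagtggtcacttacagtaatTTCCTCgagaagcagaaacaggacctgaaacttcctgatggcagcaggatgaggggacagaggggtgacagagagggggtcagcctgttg
C1qa: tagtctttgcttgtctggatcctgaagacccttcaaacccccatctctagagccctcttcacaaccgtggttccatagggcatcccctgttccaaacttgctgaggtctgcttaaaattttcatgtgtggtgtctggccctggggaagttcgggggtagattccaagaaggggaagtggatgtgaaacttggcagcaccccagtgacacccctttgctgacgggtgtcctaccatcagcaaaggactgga

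Windows of 300 bases, reaching from 250 bases before the start to 50 after it, were given by RefSeq for 7 of the 8 genes, all but C1qc. On either strand, GAGGAA was found in 5 of these 7 (Mrc1, C1qb, Cd68, Csf1r and Adgre1) and in 27.6% of all 33469 windows. The core of the interferon-stimulated response element, GAAANNGAA, was found in 2 (Csf1r and Adgre1) and in 9.71% of all windows. The AP-1 site TGANTCA, which reads the same on both strands, was found in Cd68 alone, at 2 places, and in 7.33% of all windows. GAGGAA or its reverse lies in Csf1r at -229 to -224 and -95 to -90, and in Cd68 at -27 to -22 and 5 to 10. Neither Csf1r nor Cd68 was called for a strain difference in the pregnancy change. These are matches of letters only, and no binding was measured. A relation of the motifs to the changes was not tested.

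**Figure D2:**
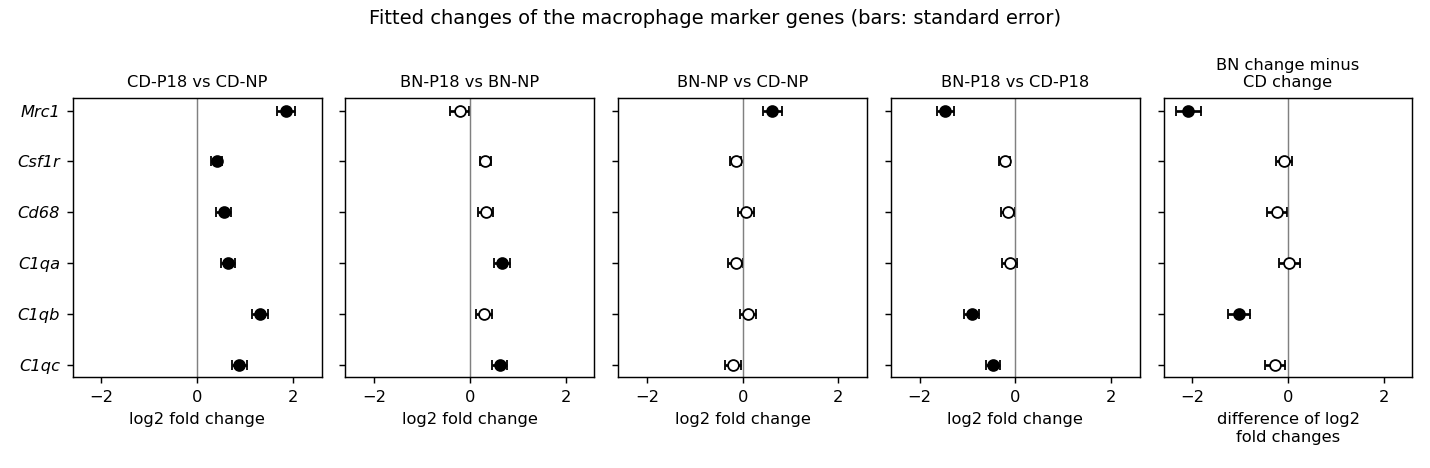
Fitted log2 fold change of each linked gene in the 4 comparisons, and in the last panel the BN change with pregnancy minus the CD change. Error bars are standard errors, filled points were called and open points were not. All 6 points are filled in CD-P18 against CD-NP, and only Mrc1 at -2.08 and C1qb at -1.02 are filled in the last panel.

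The share of each gene among all C1q reads shows the shift within the cluster without any scaling between libraries. It was examined after the levels had been seen. Since longer transcripts give more reads, a share is compared between groups and not between genes. The C1qb share was 26.3, 26.7 and 23.7% in CD-NP and 33.3, 34.6 and 32.6% in CD-P18. In BN rats it was 30.1, 28.8 and 29.9% without pregnancy and 25.9, 25.3 and 23.3% at P18. The share thus went up in CD and down in BN, with no overlap in either strain. The exact 95% binomial interval of a single rat, which covers counting error only, was 23.3 to 34.7% for the rat with the fewest C1q reads, BN-NP 2.

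The mean C1qb share changed by 7.93 points in CD and by -4.8 points in BN, a difference of -12.7 points. An exact two-sided permutation test of the pregnancy labels within each strain gave p = 0.005 for this difference, the smallest its 400 relabellings allow (Benjamini-Hochberg 0.015 over the 3 genes). Its null is no pregnancy effect in either strain, so a small p does not by itself show that the changes differ. Within 1 strain no exact test of 3 against 3 can go below 0.1. C1qa went the other way, at 35.6 ± 1.9% in CD-NP and 29.2 ± 0.81% in CD-P18, against 34.7 ± 2.9% in BN-NP and 37.3 ± 2.1% in BN-P18 (SD, n = 3), a difference of changes of 9.04 points (exact permutation p = 0.015, adjusted 0.0225). The C1qc share changed by -1.58 points in CD and 2.11 points in BN, a difference of 3.69 points (exact permutation p = 0.105). That C1qc value reached p = 0.04 by the same exact test without CD-NP 1, with a difference of 4.81 points.

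**Figure D3:**
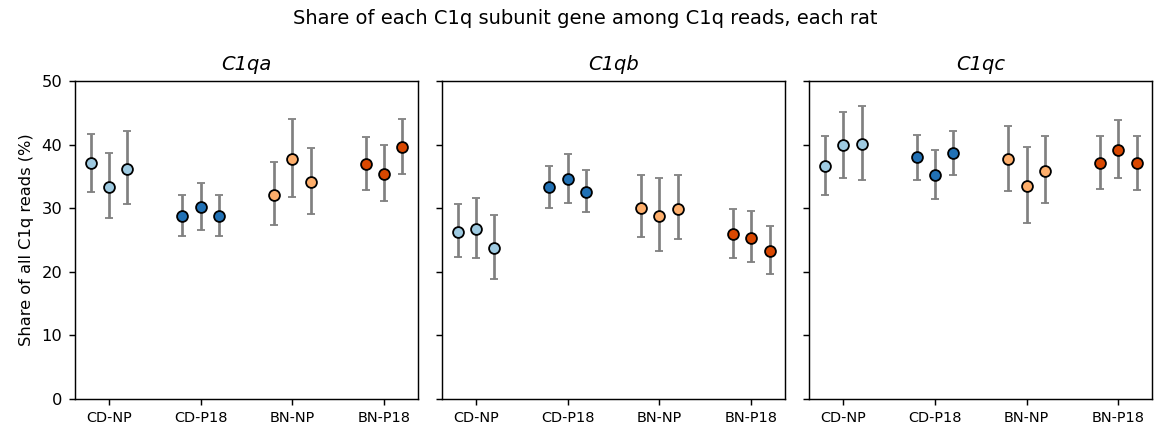
Share of C1qa, C1qb and C1qc among all C1q reads of each rat, in percent on the vertical axis, for the 4 groups. Points are rats and bars are exact 95% binomial intervals of counting error. The C1qb share was 32.6 to 34.6% in CD-P18 and 23.3 to 25.9% in BN-P18, while it was 23.7 to 26.7% in CD-NP and 28.8 to 30.1% in BN-NP.

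Counted over the 6 linked genes, all 6 were called higher and 0 lower with pregnancy in CD rats, where 2.56% of all genes tested were called higher. In BN rats 2 of 6 were called higher, C1qa and C1qc, against 0.823% of all genes. Groups that did not overlap were found for 5 of 6 in CD, all higher, against 11.1% of all genes, and for 4 of 6 in BN, all higher, against 7.85%. The median log2 fold change of the 6 was 0.76 in CD and 0.33 in BN, beside -0.0096 and 0.0002 over all genes tested. The sum of their CPM was 107 ± 9.35 in CD-NP and 177 ± 17 in CD-P18, and 103 ± 5.78 in BN-NP and 133 ± 6.92 in BN-P18 (SD, n = 3), with no overlap between stages in either strain.

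Between the strains without pregnancy, Mrc1 was the 1 gene of 6 called higher in BN-NP, against 3.83% of all genes, and the only one whose groups did not overlap, against 11.6%. At P18, Mrc1, C1qb and C1qc were called lower in BN rats, against 4.7% of all genes, and the groups did not overlap for the same 3, against 13.4%. In the test of the strain difference in the pregnancy change, Mrc1 and C1qb were called lower in BN, against 0.5% of all genes. The median of the 6 was -0.04 in the non-pregnant comparison, -0.35 at P18 and -0.24 for the difference of changes, beside -0.0012, 0.0053 and 0.0089 over all genes.

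Without CD-NP 2 or without CD-P18 3, 3 of the 6 were called in CD, namely Mrc1, C1qb and C1qc. No member was called in BN without CD-P18 2, BN-NP 1, BN-NP 2, BN-NP 3, BN-P18 1 or BN-P18 3. The background moved as well: of all genes, 669 were called in CD and 328 without CD-P18 3, and 199 were called in BN and 27 without BN-NP 1.

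Over the 12 libraries, the pairwise Pearson correlation of log2 CPM among the 6 genes ran from 0.564, between Mrc1 and Csf1r, to 0.925, between C1qb and C1qc. Mrc1 was closer to C1qb (0.913) than to C1qc (0.737) or C1qa (0.639). These values describe 12 libraries that share 4 groups. Among genes with a symbol, those most like the mean of the 6 were Ifi27 (0.952), Siglec1 (0.938), Parp3 (0.938), Parp12 (0.932) and Cd33 (0.928). Those most like Mrc1 alone included Fmo2 (0.964), Gramd1b (0.955), Lama2 (0.931) and Slc28a2 (0.92). Ifi27 had log2 fold changes with pregnancy of 2.36 in CD and 1.16 in BN rats. Fmo2, a flavin monooxygenase, had 1.49 in CD and -0.38 in BN.

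Other genes of macrophages were examined from a list of 24, of which 8 could be tied to a row. Like the members, these 8 lean towards genes that changed. Their counts here and in the next paragraphs are a description, and the shares over all genes are not a like comparison. With pregnancy in CD rats 5 of the 8 rose and 1 fell, beside 2.56% and 2.15% of all genes tested, and their median log2 fold change was 0.85. Siglec1, the sialic acid receptor CD169 of macrophages, had 0.949 to 2.61 CPM in CD-NP and 10.7 to 18.5 CPM in CD-P18 (log2 fold change 3.07 ± 0.38 SE, adjusted p = 0.001). Msr1, a scavenger receptor, rose by 1.47 ± 0.30 (adjusted p = 0.0191) and Clec10a, a galactose-binding lectin, by 1.04 ± 0.19 (adjusted p = 0.0108) on the log2 scale. Ctss, the lysosomal protease cathepsin S, rose by 0.94 and Lyz2, lysozyme, by 0.76. Lyve1, a hyaluronan receptor that marks some resident macrophages and also lymphatic vessels, fell by 0.48 (adjusted p = 0.0952). Aif1 and Mpeg1, also on the list, were not called in CD rats. Their log2 fold changes were -0.08 ± 0.21 and 0.37 ± 0.14 SE (adjusted p = 0.89 and 0.177).

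In BN rats 3 of the 8 rose with pregnancy and 0 fell, beside 0.823% and 0.577% of all genes, with a median log2 fold change of 0.52. Siglec1 went from 1.16 to 2.07 CPM in BN-NP to 3.43 to 8.4 CPM in BN-P18 (log2 fold change 1.74 ± 0.41 SE, adjusted p = 0.0852). Lyz2 rose by 0.73 (adjusted p = 0.0303) and Mpeg1, the pore-forming perforin-2 of phagocytes, by 0.64 (adjusted p = 0.0711). None of the 8 was called for a strain difference in the change, where Ctss came closest (-0.73 ± 0.18 SE, adjusted p = 0.108). Only 134 of the 14212 genes tested were called for this difference, and in simulated counts 15% of 1.5-fold changes were called. That none of 8 was called therefore says little.

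Between strains at P18, Siglec1, Msr1, Ctss, Lyz2 and Clec10a were lower in BN (log2 fold changes -1.40, -1.21, -1.01, -0.43 and -0.63) and Lyve1 was higher (0.73), 5 of 8 and 1 of 8 beside 4.7% and 4.9% of all genes. Without pregnancy Mpeg1 was lower (-0.63) and Lyve1 higher (0.56) in BN, 1 of 8 each beside 4.55% and 3.83% of all genes.

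**Figure D4:**
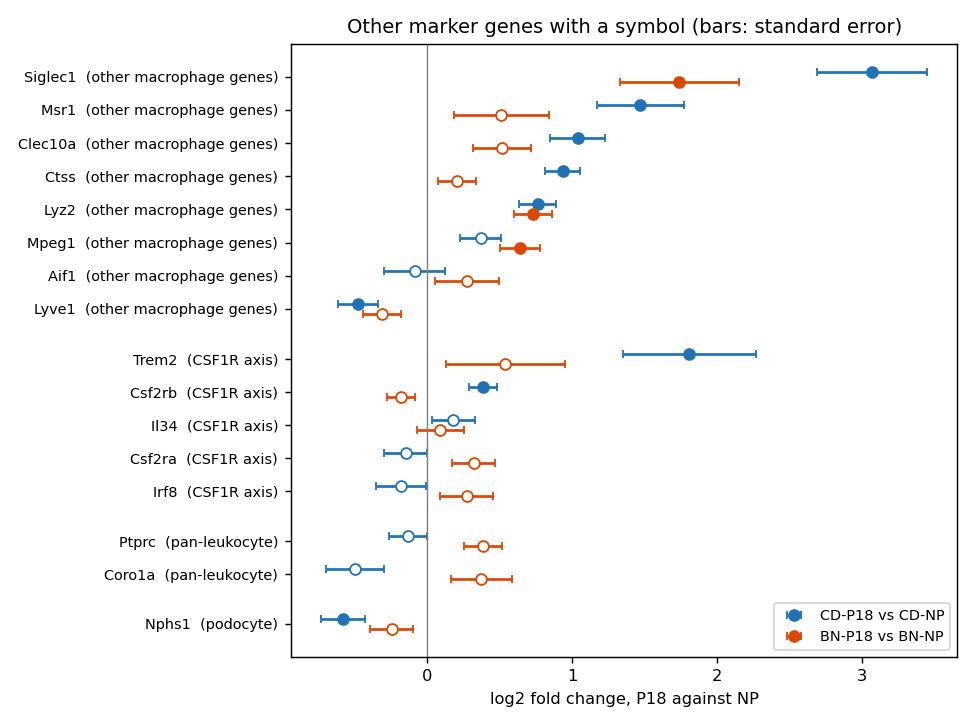
Log2 fold change with pregnancy of other marker genes that could be tied to a row, in CD rats (blue) and BN rats (orange). Error bars are standard errors, filled points were called and open points were not. Siglec1 at 3.07 in CD and 1.74 in BN lay farthest to the right, and the podocyte gene Nphs1 at -0.58 in CD farthest to the left.

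Of 10 genes listed around C1q in the complement system, Cd93 and Calr could be tied to a row, and neither C1r nor C1s, the proteases that bind C1q, was among them. Cd93, a receptor of endothelium and myeloid cells, fell with pregnancy in CD rats from 27.4 to 32.3 CPM to 15.9 to 20.4 CPM (log2 fold change -0.74 ± 0.13 SE, adjusted p = 0.00782). In BN rats its log2 fold change was -0.09 ± 0.12 SE. At P18, Cd93 was higher in BN than in CD (0.69 ± 0.13 SE, adjusted p = 0.00526). Calr, the chaperone calreticulin, was not called in any comparison.

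Of 3 pan-leukocyte markers listed, 2 could be tied to a row, and neither was called with pregnancy in either strain. Of all genes, 2.56% were called higher and 2.15% lower in CD, and 0.823% and 0.577% in BN. That neither of 2 was called therefore says little. Ptprc, the common leukocyte antigen CD45, had 38.6 ± 2.51 CPM in CD-NP and 35.4 ± 5.29 in CD-P18 (SD, n = 3), a log2 fold change of -0.13 ± 0.13 SE (adjusted p = 0.669). In BN rats it had 27.9 ± 3.66 and 36.6 ± 4.34 CPM, a log2 fold change of 0.39 ± 0.13 SE (adjusted p = 0.254). Coro1a, a leukocyte actin-binding protein, had log2 fold changes of -0.50 ± 0.20 SE in CD (adjusted p = 0.212) and 0.37 ± 0.21 SE in BN (adjusted p = 0.587). Both were lower in BN-NP than in CD-NP (-0.47 and -0.71, adjusted p = 0.048 and 0.0538). Summed over these 2 of 3 listed markers, the level spanned 49.4 to 60.4 CPM in the CD-NP rats and 40.2 to 54.2 CPM in the CD-P18 rats, and 32.5 to 43.2 and 40.9 to 53.2 CPM in the BN-NP and BN-P18 rats.

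No gene of the lists for T cells (6 genes), B cells (4), natural killer cells (4), dendritic cells (5), fibroblasts (5) or the thick ascending limb (2) could be tied to a row. Of 5 neutrophil genes only S100a9 could, and it did not pass the filter. The part of these cells in the results was therefore not tested.

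The podocyte gene Nphs1 fell with pregnancy in CD rats, the strain in which all 6 macrophage markers rose, from 91.5 to 153 CPM in CD-NP to 73.3 to 79.6 CPM in CD-P18 (log2 fold change -0.58 ± 0.15 SE, adjusted p = 0.0632). In BN rats it had 97.4 to 106 CPM without pregnancy and 76.7 to 91.1 CPM at P18, a log2 fold change of -0.24 ± 0.15 SE (adjusted p = 0.651). Slc34a1 of the proximal tubule fell by 0.47 in CD rats (adjusted p = 0.0818). Of the endothelial list 2 of 5 genes, Cdh5 and Tek, were tested and neither was called. Their sum spanned 160 to 174 CPM in the CD-NP rats and 179 to 189 CPM in the CD-P18 rats, and 187 to 200 and 182 to 218 CPM in the BN-NP and BN-P18 rats. The part of the tissue slice's makeup in the macrophage results was not tested.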

How the data were processed

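RNA-seq libraries of the 12 rats were stranded and depleted of ribosomal RNA, per the labels. The authors used Trimmomatic for trimming, STAR 2.5.2 for alignment to Rnor6.0 and HTSeq 0.6.1 for counting per gene, and deposited the raw counts, 1 column per rat. These versions come from the submitters' processing notes. The strand setting and annotation release are not given in the sources used here. HTSeq's summary lines (72.5 to 75.6% of all entries) stayed out of library sizes and tests, and 0 columns of per-sample values were left unused.

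Analysis used R 4.3.3 with edgeR 4.0.16: filterByExpr with the 4 groups, TMM scaling, and 1 quasi-likelihood fit without covariates over the 12 libraries, which were grouped by strain and stage from their labels. A call needed a fold change over 1.25 and a p, adjusted by the method of Benjamini and Hochberg, of less than 0.1, and for the strain difference in the pregnancy change an adjusted p under 0.1. The test was tried on simulated counts for all 14212 genes. With 100 genes changed 1.5-fold and 100 changed 2-fold in CD-P18 against CD-NP, 41% and 77% were called, and 7.81% of calls were on unchanged genes. For the strain difference, 15% and 61% were called.

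Symbols were tied to identifiers by the log2 fold changes and mean log CPM of the study's table of comparisons, each within 0.001 of a refit of the deposited counts. That table also holds p-values, and its columns served this link only. It gave 2988 of 3064 symbols a single row, and with the sign of the changes turned it gave 2. Of the genes tested, 2906 carry a symbol.

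The genes and lists were chosen with earlier results of these data known. All linked members were named. List genes were named if called in a comparison, up to 5 per list by p, with Il34, Csf1, C1r and C1s whatever their values, the other tested genes of small or counted lists (chosen after their values were seen), and the 5 genes most like the members' mean and Mrc1. Alternatives were DESeq2 1.42.0, upper-quartile scaling, other filters and thresholds, a replicate block, fits of the 6 libraries compared, and leaving out each library. Methylation libraries of the same series were not used here, since the annotation at hand is GRCr8 and not the build of the files. Promoter sequences are from RefSeq. Some genes that the naming rule covers are not reported here.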

Additional observations from a re-analysis of the deposited data

Results flagged for a closer look

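These 4 results were picked out because the estimated change with pregnancy differed between the strains. For the levels of Mrc1 and C1qb the difference itself was tested. The permutation test of the C1q shares takes no pregnancy effect in either strain as its null. For Mrc1, the BN change minus the CD change was -2.08 on the log2 scale (edgeR's quasi-likelihood test, adjusted p = 0.00698), higher at P18 in 3 of 3 CD rats than in any CD-NP rat, with overlapping BN groups. For C1qb it was -1.02 (adjusted p = 0.0868), with the 3 CD-P18 rats above all others. Of C1q reads, the share of C1qb differed by -12.7 points and that of C1qa by 9.04 points (exact permutation p = 0.005 and 0.015). Both shares are parts of 1 total, so they are not separate observations.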

How the results depend on the processing

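Over the single-gene values of the members, 489 kept their direction and their side of the threshold, 62 kept the direction but lost the call, 1 gained a call (Csf1r lower in BN-P18 than in CD-P18 without CD-P18 1, adjusted p = 0.0805) and 12 changed sign. Those 12 were small values that were called in neither setting, each without 1 library. Over the fits without 1 library, the value ran from -0.345 to 0.012 for Mrc1 with pregnancy in BN. Between non-pregnant rats it ran from -0.0513 to 0.247 for Cd68, -0.247 to 0.0115 for C1qa and -0.0429 to 0.251 for C1qb, and between pregnant rats from -0.203 to 0.0246 for C1qa. The BN change minus the CD change ran from -0.207 to 0.036 for Csf1r and -0.133 to 0.172 for C1qa. The cause was not tested.

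Members called with pregnancy were 4 in CD and 0 in BN with stricter thresholds (fold change over 1.5, adjusted p below 0.05), where 225 and 70 of all genes were called. They were 4 and 1 in fits of the 6 libraries compared, where 540 and 149 of all genes were called. Both settings gave 0 for BN-NP against CD-NP, where 496 and 1020 of all genes were called. For the strain difference in the change, 1 was called at the stricter thresholds and 1 with upper-quartile scaling, beside 64 and 124 of all genes. Without 1 library each, 3 to 6 members were called in CD, 0 to 2 in BN, 0 to 1 between non-pregnant rats, 2 to 3 between pregnant rats and 1 to 2 for the strain difference. List genes called were then 7 to 12, 0 to 4, 1 to 12, 8 to 12 and 0 to 2, where all libraries gave 12, 4, 10, 12 and 0. With all libraries, 669, 199, 1191, 1365 and 134 of the 14212 genes tested were called. How these moved without 1 library is given in the next paragraph. In CD they were 7 without CD-NP 2 or CD-P18 3. In BN they were 0 without BN-NP 1 or BN-NP 2, 1 without CD-P18 2, BN-P18 2 or BN-P18 3 and 2 without BN-NP 3. Between non-pregnant rats they were 1 without BN-NP 2, 4 without BN-NP 3 and 6 without CD-NP 1. With no filter on low counts, 4 list genes were called for the strain difference.

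Counts over all genes moved by over 1.5 times for the strain difference: 134, against 330 with DESeq2, 329 with no filter, 235 with the replicate block and 64 at the stricter thresholds. With pregnancy in CD, 669 became 225 at the stricter thresholds. In BN, 199 became 352 with no filter and 70 at the stricter thresholds. BN-NP against CD-NP went from 1191 to 496 and BN-P18 against CD-P18 from 1365 to 616. Calls of the strain difference were 63 higher and 71 lower, and 72 higher and 52 lower with upper-quartile scaling. Leaving out 1 library also moved these counts, and the shares of all genes called move with them. In CD, 669 became 387 without CD-P18 1, 341 without CD-NP 2 and 328 without CD-P18 3. In BN, 199 became 125 without CD-P18 2, 27 without BN-NP 1, 46 without BN-NP 2, 64 without BN-P18 2 and 81 without BN-P18 3. Between non-pregnant rats, 1191 became 749 without CD-NP 2 and 653 without BN-NP 2. The strain difference ranged from 51 without BN-NP 2 to 287 without CD-NP 1, and was 61, 69, 70 and 54 without CD-NP 2, CD-P18 1, BN-NP 1 and BN-P18 2.

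Replicate numbers did not pair the rats: 3 of 18 same-numbered pairs had deviations correlated over 0.1, with a range of -0.188 to 0.27. With the replicate block, 6 members were called in CD, 2 in BN, 1 between non-pregnant and 3 between pregnant rats and 2 for the strain difference, the same counts as without it. Of all genes, 704, 286, 1274, 1414 and 235 were called with the block, against 669, 199, 1191, 1365 and 134 without it. Not run were the analyses of CpGs (a coverage minimum of 20 reads, leaving out libraries, a block), for lack of an annotation on the build of the files. Mrc1, C1qb and Cd68 rest on as few as 43, 68 and 78 reads per rat, which limits their precision.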

Other observations

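Genes of other kidney cells that were not compared above were few. Between pregnant rats, Flt4, the receptor VEGFR3 of lymphatic endothelium and the only 1 of 4 lymphatic genes with a row, was higher in BN-P18 than in CD-P18 (log2 fold change 0.41 ± 0.11 SE, adjusted p = 0.0341). In the proximal tubule, 3 of 5 genes had a row. Slc5a2, the glucose transporter SGLT2, fell with pregnancy in BN rats by 0.64 on the log2 scale (adjusted p = 0.0767) and was lower in BN-P18 than in CD-P18 (-0.73, adjusted p = 0.00832). Slc22a6, an organic anion transporter, was higher in BN-NP than in CD-NP (0.59, adjusted p = 0.0307). Scnn1g, a subunit of the sodium channel of the collecting duct and 1 of 2 genes listed, was lower in BN-NP (-0.44, adjusted p = 0.00268).

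Of the chemokines and receptors of monocytes, Ccl7 was not called with pregnancy in CD or BN rats. It was called higher in BN-P18 (0.365 to 1.17 CPM) than in CD-P18 (0 to 0.171 CPM), a level of a few reads per rat at which no fold is given.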
